A study of Gallus gallus with 15 samples.

Results

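The comparison set 3 livers of Hoengseong Yakdak (Ya) against 3 livers of Hyunin Black (Bl), so that 6 of the 15 arrays of the study are described here across all 18308 features of the array. Both are native chicken breeds of Korea. All birds were males of 13 weeks, hatched from eggs of local farms, raised on 1 research farm and fed without restriction, and no bird was treated or genetically altered. The other 9 arrays came from White Leghorn (WL), Yeonsan Ogye (Og) and Hwangbong (Hw), 3 birds each, and entered the model for the estimate of spread. The labels call the birds of a breed biological replicates, and they give neither family nor farm of origin, so breed cannot be told apart from the flock the eggs came from. A bird is given by its breed code and number, as in Ya 1.

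The chicken liver makes most plasma proteins, is the main site of fatty acid synthesis in birds, clears steroids and amino acids, and makes uric acid. It also holds resident macrophages, lymphocytes, bile duct cells and the endothelium of its sinusoids. Whether the breeds differ in sequence where the probes bind was not tested.

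The values are log2 expression values, so a difference of 1 is a 2-fold difference. Each difference is Ya minus Bl, followed by its standard error from the limma fit. The Benjamini-Hochberg adjusted p takes all features into account, and features under 0.05 are said to have passed. The arrays had medians between 6.12 and 6.20. Correlations across features lay between 0.985 and 0.988 within these 2 breeds and between 0.978 and 0.986 from one breed to the other. The tissue label was borne out by the levels of hepatocyte proteins, with albumin (ALB) at 13.80, 13.75 and 13.78 in the Ya birds, against 13.82, 13.82 and 13.79 in the Bl birds. The 10 measured hepatocyte markers, among them TTR, FGA, FGB, FGG, SERPINC1 and APOB, differed by between -0.23 (HNF4A) and 0.01 (AHSG), and none passed. Of these 10, 9 lay below 0, with a median of -0.12. Background was not measured on these arrays. As a yardstick, HINTW, a gene of the female-specific W chromosome, read between 3.95 and 4.64 in the 15 males, and 26.0% of all features had a mean at or below that highest value in at least one of these breeds. A level in that range is not shown to be above background, and the size of a difference that ends there may be larger than measured. The yardstick rests on 1 feature, from 1 of 3 measured W-linked genes, which together averaged 4.33. Another W-linked gene, ATP5F1AW, read higher, between 5.97 and 6.76 in the same 15 males. A level above 4.64 is therefore not shown to be above background by this yardstick either.

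Between the breeds 54 of 18308 features differed, which is 0.295%. Of these, 25 (0.137%) were higher in Hoengseong Yakdak and 29 (0.158%) were lower. The differences that passed ran from 0.60 to 3.38 in size on the log2 scale, with a median of 1.32, and 35 features reached 2-fold, 13 of them higher and 22 lower. In all 54 the 3 Ya birds lay wholly on one side of the 3 Bl birds. Over all features, 7.62% had every Ya bird above every Bl bird and 8.40% had every Ya bird below every Bl bird. At an unadjusted p under 0.05 there were 2036 features, 913 higher and 1123 lower. The whole distribution was centred, with a median difference of -0.002 and 5th and 95th percentiles at -0.41 and 0.38. The count of 54 depended on single birds. It was 20 without Ya 2, 32 without Bl 1, 34 without Bl 3 and 86 without Bl 2, 35 without WL 3, and 27 when the 6 arrays were fitted alone.

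**Figure D1:**
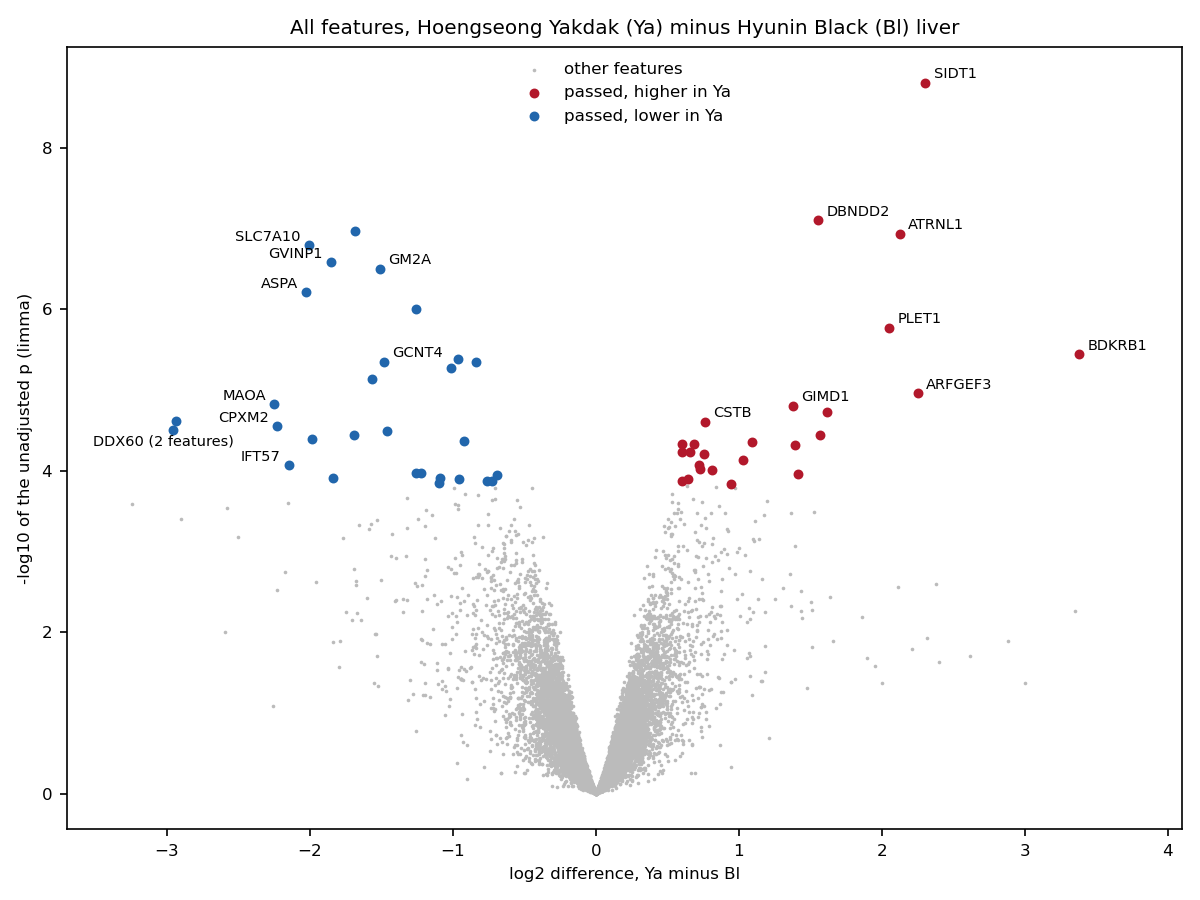
Log2 difference (Ya minus Bl, horizontal axis) against -log10 of the unadjusted limma p (vertical axis) for all 18308 features, with the 25 features that passed and were higher in Ya in red and the 29 that were lower in blue. SIDT1 stands highest, BDKRB1 furthest right at 3.38 and the DDX60 features furthest left among those that passed.

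Of the 54 features, 39 can be named by a gene, 14 have no symbol and 1 has only a locus number. The 39 stand for 38 genes, 22 of them higher in Hoengseong Yakdak and 16 lower. Of these 39, 11 passed in all 15 fits that left out 1 array. These were SIDT1, DBNDD2, ATRNL1, PLET1 and BDKRB1 among the higher and SLC7A10, GVINP1, GM2A, ASPA, TUBA8B and GCNT4 among the lower. The genes are taken up below by what their products do.

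The 2 largest rises came from genes of membrane proteins. BDKRB1, the bradykinin receptor B1, which in mammals is induced by inflammation, read 7.98, 7.63 and 7.96 in the Ya birds, against 4.01, 3.89 and 5.53 in the Bl birds. The difference was 3.38 ± 0.46 (adjusted p = 0.00583), a 10.4-fold higher level. Bl 3 lay 1.51 above the next Bl bird, and Bl 1 and Bl 2 were at levels not shown to be above background. Its neighbour BDKRB2, the other bradykinin receptor, averaged 3.45 in Ya and 3.31 in Bl, neither shown to be above background. SIDT1, a membrane protein related to RNA transporters, read 7.35, 7.76 and 7.65 in Ya, against 5.03, 5.41 and 5.41 in Bl. It had the smallest adjusted p of the comparison (2.86e-05) at a difference of 2.30 ± 0.17. ATRNL1, an attractin-like protein that binds the melanocortin-4 receptor in mouse, read 7.55, 7.33 and 8.16 in Ya, against 5.44, 5.74 and 5.48 in Bl, a difference of 2.12 ± 0.22 (adjusted p = 0.000531). PLET1, a surface protein known from placenta and skin in mouse, read 7.48, 6.94 and 7.005 in Ya, against 5.18, 5.15 and 4.94 in Bl, a difference of 2.05 ± 0.26 (adjusted p = 0.00309). Apart from BDKRB1 in Bl, the birds of a breed lay within 0.9 of each other in these 4 genes.

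Smaller rises came from 5 further genes of membrane, adhesion or secreted proteins. PROM1 (CD133), a protein of membrane protrusions that also marks progenitor cells, read 5.80, 6.20 and 6.40 in Ya, against 4.62, 5.07 and 4.53 in Bl (1.40 ± 0.24, adjusted p = 0.0264). IGSF10, an immunoglobulin superfamily protein, read 5.74, 6.57 and 6.90 in Ya, against 4.88, 5.21 and 4.87 in Bl (1.41 ± 0.27, adjusted p = 0.0455). In IGSF10 the lowest Ya bird, Ya 1, stood only 0.53 above the highest Bl bird, Bl 2. SEMA5A, a membrane-bound semaphorin guidance protein, was higher by 0.76 ± 0.13 (adjusted p = 0.0314). GUCA2B, the uroguanylin precursor that activates guanylate cyclase C in the mammalian gut, was higher by 0.65 ± 0.12 (adjusted p = 0.0479). CNTNAP2, a neurexin-family adhesion protein, was higher by 0.60 ± 0.10 (adjusted p = 0.0264) at means of 3.09 in Ya and 2.49 in Bl, both under the W-linked yardstick. PROM1 missed the threshold without Bl 1, Bl 3, Ya 2 or Ya 3 (adjusted p up to 0.143), SEMA5A without WL 3, Bl 1, Bl 3, Ya 2 or Ya 3 (up to 0.154) and CNTNAP2 without Bl 1, Bl 2, Ya 2 or Ya 3 (up to 0.126). IGSF10 passed only without WL 1, Bl 2 or Ya 1 and GUCA2B only without Bl 2 or Hw 1, with adjusted p up to 0.165 otherwise for both.

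**Figure D2:**
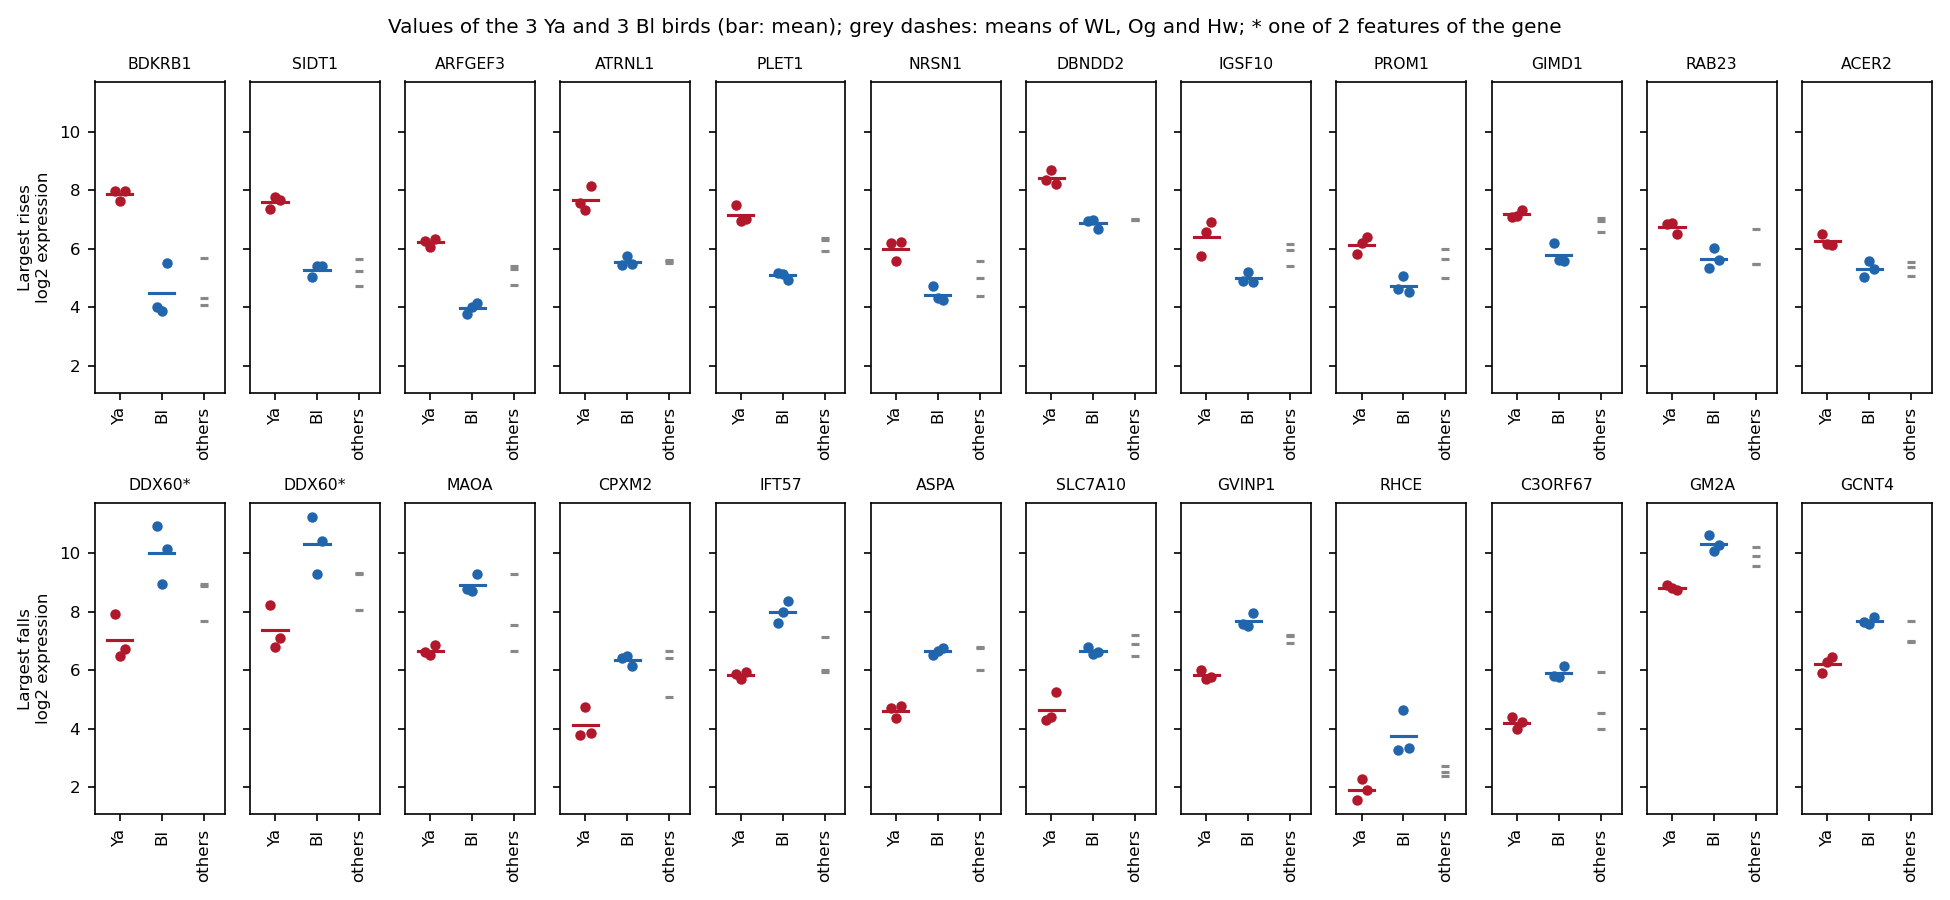
Log2 expression (vertical axis) of the 12 largest rises (upper row) and 12 largest falls (lower row) in the 3 Ya birds (red) and 3 Bl birds (blue), with breed means as bars and the means of WL, Og and Hw as grey dashes. That the red and blue points do not overlap was a condition for entering the figure. Both DDX60 panels show the same spread of birds.

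Genes of vesicle traffic, cilia and microtubules changed in both directions. ARFGEF3, of a family of exchange factors for the small GTPase ARF, read 6.28, 6.06 and 6.34 in Ya, against 3.77, 4.02 and 4.14 in Bl, a difference of 2.25 ± 0.34 (adjusted p = 0.0117). Without Bl 1 it just missed the threshold. The Bl level is not shown to be above background. DBNDD2, a dysbindin-domain protein that binds casein kinase 1, read 8.36, 8.70 and 8.20 in Ya, against 6.94, 6.98 and 6.67 in Bl, a difference of 1.55 ± 0.15 (adjusted p = 0.000531). NRSN1, a neuronal vesicle membrane protein, was higher by 1.57 ± 0.26 (adjusted p = 0.0246), from a Bl level not shown to be above background. RAB23, a GTPase that acts in cilia and hedgehog signalling, was higher by 1.09 ± 0.19 (adjusted p = 0.0264). IFT57, a subunit of the intraflagellar transport complex that builds cilia, went the other way. It read 5.89, 5.71 and 5.92 in Ya, against 7.62, 7.98 and 8.36 in Bl, a fall of 2.15 on the log2 scale (SE 0.39, adjusted p = 0.0401).

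Among tubulin genes and their partners, TBCD, a cofactor of tubulin folding, was higher by 0.81 ± 0.15 (adjusted p = 0.0444), and TTLL7, which adds glutamate chains to tubulin, was higher by 0.66 ± 0.12 (adjusted p = 0.0308). TUBA8B, an alpha tubulin, read 2.36, 2.40 and 2.71 in Ya, against 3.95, 3.65 and 3.64 in Bl, a difference of -1.26 ± 0.15 (adjusted p = 0.00201). Both of its levels lie below the W-linked yardstick, so the presence of the transcript is not shown in either breed. A second feature annotated as TBCD read 7.20 in Ya and 7.28 in Bl on average (-0.08 ± 0.15, adjusted p = 0.900), so the rise belonged to 1 of its 2 features. NRSN1 missed the threshold without Bl 2, Bl 3, Ya 1 or Ya 3 (adjusted p up to 0.0860) and RAB23 without Bl 1, Bl 3, Ya 1 or Ya 2 (up to 0.143). TTLL7 missed it without WL 3, Bl 1, Bl 3 or any Ya bird (up to 0.106). IFT57 passed only without WL 1 or any Og bird (up to 0.157 otherwise) and TBCD only without Og 1, Og 2 or Hw 1 (up to 0.153 otherwise).

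The largest falls included a transporter, several enzymes and a lysosomal activator. SLC7A10, the transporter Asc-1 for small neutral amino acids such as serine, glycine and alanine, read 4.29, 4.39 and 5.26 in Ya, against 6.80, 6.55 and 6.61 in Bl. The difference was -2.01 ± 0.21 (adjusted p = 0.000582), and it was the only 1 of 39 measured amino acid transporters to pass, where 0.295% of all features did. ASPA, the aspartoacylase that splits N-acetylaspartate into aspartate and acetate, read 4.69, 4.38 and 4.79 in Ya, against 6.51, 6.67 and 6.75 in Bl (-2.02 ± 0.24, adjusted p = 0.0014). GM2A, the lysosomal activator that presents ganglioside GM2 to hexosaminidase A, was an abundant transcript at 8.90, 8.80 and 8.74 in Ya, against 10.62, 10.08 and 10.27 in Bl (-1.51 ± 0.17, adjusted p = 0.000824). GM2A was thus 2.85-fold lower and SLC7A10 4.02-fold lower. The Ya level of ASPA is not shown to be above background, nor are the SLC7A10 levels of Ya 1 and Ya 2. In all 3 genes the breeds did not overlap.

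MAOA, the monoamine oxidase that degrades serotonin and noradrenaline, read 6.63, 6.52 and 6.87 in Ya, against 8.78, 8.69 and 9.29 in Bl (-2.25 ± 0.35, adjusted p = 0.0151). It was the only 1 of 47 measured genes of drug and steroid metabolism to pass (0.295% of all features), and it missed the threshold without Bl 3 or Ya 2 (adjusted p up to 0.0968). GCNT4, a glycosyltransferase that branches O-linked glycans, read 5.90, 6.28 and 6.45 in Ya, against 7.65, 7.59 and 7.83 in Bl (-1.48 ± 0.20, adjusted p = 0.00583). CPXM2, of the carboxypeptidase family, read 3.80, 4.73 and 3.85 in Ya, against 6.43, 6.49 and 6.14 in Bl (-2.23 ± 0.37, adjusted p = 0.0224). The Ya level of CPXM2 is not shown to be above background, and the call was lost without Bl 1, Ya 1 or Ya 3 (adjusted p up to 0.0697).

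Rises among enzymes and enzyme inhibitors were smaller. CSTB, cystatin B, an inhibitor of lysosomal cathepsins, read 6.94, 7.08 and 6.99 in Ya, against 5.997, 6.43 and 6.30 in Bl (0.76 ± 0.12, adjusted p = 0.0206). AFMID, the arylformamidase of the kynurenine pathway of tryptophan breakdown, read 8.74, 8.71 and 8.56 in Ya, against 8.02, 7.94 and 7.99 in Bl (0.69 ± 0.12, adjusted p = 0.0264). BCHE, butyrylcholinesterase, a plasma esterase made by liver, read 8.53, 8.50 and 8.48 in Ya, against 7.91, 7.82 and 7.63 in Bl (0.72 ± 0.13, adjusted p = 0.0401). The Ya birds agreed closely in these genes, within 0.2 of each other. ACER2, a ceramidase of the Golgi, was higher by 0.95 ± 0.18 (adjusted p = 0.0494) and ENOX1, a cell-surface oxidase, by 0.73 ± 0.13 (adjusted p = 0.0437). CSTB missed the threshold without Bl 1, Ya 2 or Ya 3 (adjusted p up to 0.126) and AFMID without any Bl bird, Ya 1 or Ya 2 (up to 0.143). BCHE missed it without WL 2, Hw 2, Hw 3 or any Bl or Ya bird (up to 0.153). ENOX1 passed only without Og 1, Og 2, Bl 2, Hw 1 or Hw 2 (up to 0.162 otherwise) and ACER2 only without Og 3, Bl 2 or Hw 1 (up to 0.149 otherwise).

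Interferon response genes lay lower in Hoengseong Yakdak in 38 of 42 measured members, and 1 of them passed, where 0.295% of all features did. These genes are switched on in most cell types by interferon and encode antiviral sensors, nucleases and GTPases. The member that passed, DDX60, a helicase that aids viral RNA sensing, read 8.22, 6.81 and 7.09 in Ya, against 11.23, 9.29 and 10.40 in Bl (-2.93 ± 0.47, adjusted p = 0.0206). A second DDX60 feature gave the same picture, with 7.92, 6.48 and 6.72 in Ya, against 10.91, 8.93 and 10.16 in Bl (-2.96 ± 0.49, adjusted p = 0.0234). No other feature that passed fell as far as these, which were 7.63-fold and 7.76-fold lower. Both features missed the threshold without Bl 1, Bl 3, Ya 2 or Ya 3 (adjusted p up to 0.132 and 0.143).

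The list as a whole moved with the birds of Hyunin Black. Its median difference was -0.60, against -0.002 over all features, and 17 of its 42 members (40.5%) had every Ya bird below every Bl bird, where 8.40% of all features did. The mean of the list, relative to the 15 arrays, was -0.23, -0.27 and -0.27 in the Ya birds, against 1.08, -0.06 and 0.43 in the Bl birds. The Ya birds were alike, whereas Bl 1 was high, Bl 3 intermediate and Bl 2 close to the Ya birds. IFI6, an interferon-induced inhibitor of viral replication, read 7.72, 7.998 and 7.74 in Ya, against 11.52, 9.16 and 10.50 in Bl (-2.58 ± 0.54, adjusted p = 0.067). MX1, the antiviral Mx GTPase, read 6.84, 6.81 and 6.86 in Ya, against 10.13, 6.87 and 8.11 in Bl (-1.53 ± 0.58, adjusted p = 0.322). IFIT5, which binds foreign RNA, read 8.21, 7.99 and 7.83 in Ya, against 11.40, 8.44 and 10.07 in Bl (-1.96 ± 0.53, adjusted p = 0.147). In MX1 the groups were separated by only 0.005, since Bl 2 stood at the Ya level.

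Single birds of either breed decided how much of the list passed. Without Bl 2, 12 members passed and were lower in Ya, in a fit where 86 of all 18308 features passed (0.470%), 60 of them lower in Ya (0.328%). These were DDX60, RNF213, IFIT5, OASL, LY6E, IFI6, EPSTI1, IFI35, CMPK2, SAMD9L, RSAD2 and CMTR1. In that fit IFI6 differed by -3.19 (adjusted p = 0.0153), OASL, a 2'-5' oligoadenylate synthetase family protein, by -2.32 (adjusted p = 0.0112) and RSAD2, the antiviral enzyme viperin, by -2.22 (adjusted p = 0.0475). Without Bl 1 no member passed, in a fit where 32 of all 18308 features did. The median difference was then -0.35 and 37 of 42 members still lay below 0. Without Bl 3 GBP4L passed and DDX60 did not, in a fit where 34 of all features passed. Without Ya 2 or Ya 3 no member passed, in fits where 20 and 41 of all features did. The median difference of the list stayed at -0.59 in both. LY6E, an interferon-induced membrane protein, stood just outside the threshold with all arrays, at 10.93, 11.42 and 11.52 in Ya, against 12.64, 11.84 and 12.36 in Bl (-0.99 ± 0.19, adjusted p = 0.0508).

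**Figure D3:**
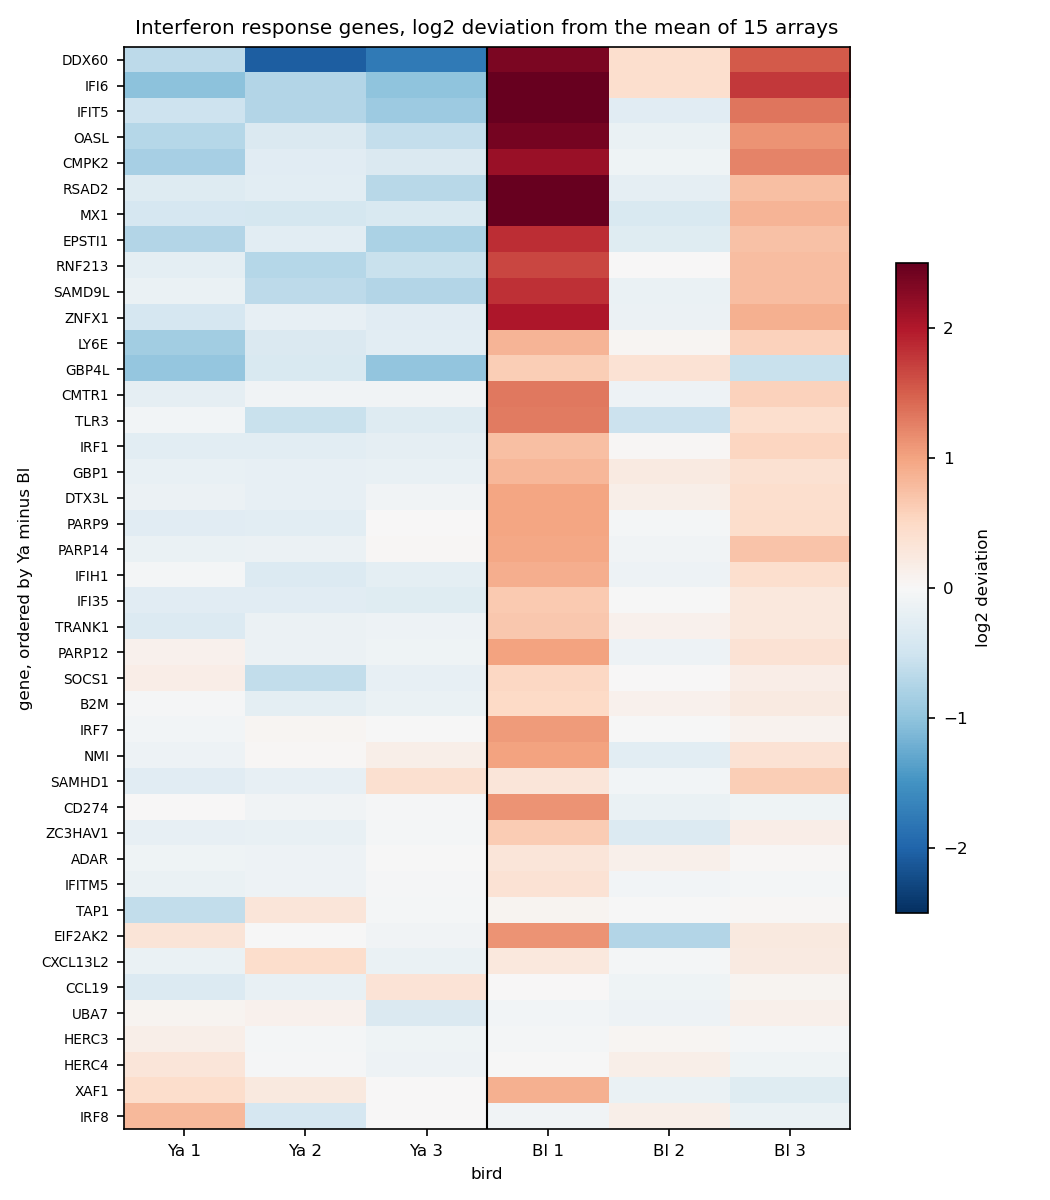
Log2 deviation from the mean of the 15 arrays (colour, red higher and blue lower) of the 42 interferon response genes (rows, ordered by Ya minus Bl) in each Ya and Bl bird (columns). Bl 1 is red over most rows, Bl 3 less so, and Bl 2 lies near the 3 Ya birds, with list means of 1.08, 0.43 and -0.06.

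Of 3 further genes linked by name, domain or role to immune or blood cells, 2 fell and 1 rose. GVINP1, named for the interferon-induced very large GTPases, read 6.01, 5.71 and 5.77 in Ya, against 7.57, 7.51 and 7.95 in Bl (-1.85 ± 0.20, adjusted p = 0.000801). Bl 2, the bird with low interferon genes, was close to Bl 1 in GVINP1. GIMD1, a protein with the GTPase domain of the lymphocyte GIMAP family, read 7.09, 7.11 and 7.31 in Ya, against 6.19, 5.60 and 5.59 in Bl (1.38 ± 0.21, adjusted p = 0.0151), and the call was lost without Bl 3, Ya 2 or Ya 3 (adjusted p up to 0.068). TRIM58, a ubiquitin ligase that acts in maturing red cells in mouse, was lower, at 5.25, 5.13 and 4.91 in Ya, against 6.49, 6.03 and 6.43 in Bl (-1.22 ± 0.23, adjusted p = 0.0455). It passed only without an Og bird or without Bl 2 (adjusted p up to 0.154 otherwise).

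Most T and NK cell genes lay lower in Hoengseong Yakdak, although none passed, where 0.295% of all features did. Of 27 measured T and NK cell genes, 24 lay below 0 and 3 above, the highest at 0.33, with a median difference of -0.36. The genes named below all fell, and UBASH3A, EOMES and CD3E were chosen after their values were seen. In 8 (29.6%) every Ya bird lay below every Bl bird, where 8.40% of all features did, and in 2 (7.41%) every Ya bird lay above, where 7.62% did. The list mean was -0.04, -0.41 and -0.17 in the Ya birds, against 0.22, -0.002 and 0.16 in the Bl birds. CHIR-B6, a receptor of the chicken immunoglobulin-like receptor family, read 5.21, 5.43 and 5.08 in Ya, against 6.49, 6.02 and 6.24 in Bl (-1.01 ± 0.29, adjusted p = 0.177). UBASH3A, which dampens T cell receptor signalling, differed by -0.72 ± 0.15 (adjusted p = 0.0622) and EOMES, a transcription factor of NK and memory T cells, by -0.84 ± 0.20 (adjusted p = 0.095). CD3E, a subunit of the T cell receptor complex, read 7.24, 6.77 and 7.13 in Ya, against 7.66, 7.34 and 7.49 in Bl. UBASH3A passed without Ya 3, the median was -0.20 without Ya 2, and 22 of 27 members lay below 0 in that fit. In whole liver, fewer cells of a type and less RNA per cell cannot be told apart, and the part of lymphocytes in the interferon differences was not tested.

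Plasma cells and antigen presentation followed with single genes. JCHAIN, the joining chain of secreted immunoglobulin, read 8.32, 8.50 and 8.61 in Ya, against 10.18, 9.46 and 9.54 in Bl (-1.25 ± 0.34, adjusted p = 0.155), whereas CD79B, a subunit of the B cell receptor, differed by -0.14 ± 0.16. Of 14 measured B and plasma cell genes 11 lay below 0 and none passed, where 0.295% of all features did. Antigen presentation had 16 of 20 measured members below 0 with a median of -0.17, and again none passed. B2M, the light chain of MHC class I, read 10.77, 10.57 and 10.63 in Ya, against 11.31, 10.92 and 11.03 in Bl (-0.43 ± 0.12, adjusted p = 0.165). BF2, the polymorphic MHC class I heavy chain of chickens, ranged widely within a breed, at 5.80, 7.95 and 7.87 in Ya, against 2.45, 10.22 and 11.65 in Bl. B-G, a butyrophilin-like MHC gene with many near-identical copies, read 3.40, 3.73 and 3.65 in Ya, against 6.45, 4.36 and 5.36 in Bl (-1.79 ± 0.72, adjusted p = 0.356), and which copy the probes read is uncertain. The Ya levels of B-G are not shown to be above background.

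Bl 1 was also the highest of the 6 birds in other defence lists. In acute phase and complement, list means were -0.13, -0.17 and -0.05 in the Ya birds, against 0.32, -0.20 and -0.04 in the Bl birds. In this list 20 of 29 members lay below 0, and without Bl 1 the count was 15 of 29. None passed, where 0.295% of all features did. AVD, the biotin-binding protein avidin, which is induced in inflamed chicken tissues, stood at 6.55, 6.71 and 6.92 in Ya, against 10.02, 6.54 and 6.79 in Bl, so that 1 bird made its whole difference (-1.06 with all arrays, 0.06 without Bl 1). ORM1, an acute phase glycoprotein, was likewise highest in Bl 1 at 13.17, against a range of 11.65 to 12.43 in the other 5 birds. C1S, a protease of the complement cascade, read 10.88, 10.79 and 10.99 in Ya, against 11.79, 11.13 and 11.28 in Bl (-0.51 ± 0.16, adjusted p = 0.219). Of 27 Toll-like receptor and adaptor genes 18 lay below 0 and none passed. TLR4, the lipopolysaccharide receptor, was among those above, at 6.29, 6.56 and 6.49 in Ya, against 6.16, 5.88 and 5.95 in Bl (0.45 ± 0.14, adjusted p = 0.219). Of 20 macrophage genes 13 lay below 0 and none passed. In 3 of them (15%) every Ya bird lay above every Bl bird, where 7.62% of all features did. None had every Ya bird below every Bl bird, where 8.40% of all features did. The median was -0.09 with all arrays and 0.06 without Bl 1. Of 10 heterophil genes 7 lay below 0 with a median of -0.06, and none passed. LYG2, a lysozyme and the largest difference of that list, went the other way. It read 9.59, 10.32 and 10.05 in Ya, against 9.06, 9.12 and 8.75 in Bl (1.01 ± 0.31, adjusted p = 0.213).

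Cholesterol synthesis and uptake had 12 of 14 measured members below 0 and a median of -0.45. None passed, where 0.295% of all features did, and 0 members had an unadjusted limma p under 0.05. In 2 (14.3%) every Ya bird lay below every Bl bird, where 8.40% of all features did. The median ran from -0.56 without Bl 1 to -0.28 without Bl 3. The list mean was -0.47, -0.05 and -0.17 in the Ya birds, against -0.20, 0.21 and 0.45 in the Bl birds, so the groups overlapped, with Bl 1 below Ya 2 and Ya 3. SQLE, the squalene epoxidase, read 8.31, 8.64 and 8.84 in Ya, against 8.79, 9.27 and 9.84 in Bl (-0.70 ± 0.43, adjusted p = 0.597), and NSDHL, a later enzyme of the same pathway, differed by -0.81 ± 0.53 (adjusted p = 0.628). Most of these genes are known to be switched on together by the sterol-sensing factor SREBF2 when cell cholesterol is low. The sterol exporter subunit ABCG5, which sends cholesterol into bile, read 6.11, 5.19 and 4.90 in Ya, against 6.93, 7.20 and 7.04 in Bl (-1.66 ± 0.36, adjusted p = 0.0792). It did not pass with all arrays and did without Ya 1 or Og 3 (adjusted p = 0.0403 and 0.0398). Its partner ABCG8 read 4.73, 3.57 and 3.73 in Ya, against 5.69, 4.93 and 3.92 in Bl (-0.83 ± 0.50, adjusted p = 0.592). Lower means in Ya were thus measured for both subunits of this transporter, with overlap in ABCG8. In ABCG8, Ya 2, Ya 3 and Bl 3 were at levels not shown to be above background.

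FADS1, the delta-5 desaturase of polyunsaturated fatty acids, read 9.36, 9.87 and 9.35 in Ya, against 10.28, 10.62 and 10.14 in Bl (-0.82 ± 0.21, adjusted p = 0.123). The list of fatty acid and triglyceride synthesis was otherwise split, with 9 of 18 members above 0 and a median of 0.01. ACAA1, a peroxisomal thiolase of fatty acid oxidation, differed by -0.68 ± 0.21 (adjusted p = 0.213) in a list with 11 of 25 above 0. In the yolk and estrogen list, whose transcripts liver makes for egg yolk in laying hens, BCHE, an esterase and not a yolk protein, was the 1 of 7 members that passed, where 0.295% of all features did. APOV1, of yolk lipoprotein particles, read 6.96, 5.98 and 5.74 in Ya, against 7.58, 8.29 and 5.94 in Bl (-1.05 ± 0.50, adjusted p = 0.46).

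In amino acid breakdown 31 of 48 members lay above 0 with a median of 0.06, and the sign of the median turned without Ya 1 (-0.05). HPD, of tyrosine breakdown, read 12.91, 12.72 and 12.97 in Ya, against 12.39, 12.44 and 12.28 in Bl (0.50 ± 0.14, adjusted p = 0.177). FTCD, of histidine breakdown, read 9.16, 9.19 and 9.24 in Ya, against 9.75, 9.67 and 9.54 in Bl (-0.46 ± 0.12, adjusted p = 0.138). The urea-cycle enzyme ASS1 read 7.83, 7.61 and 7.74 in Ya, against 9.14, 7.73 and 8.16 in Bl (-0.61 ± 0.27, adjusted p = 0.407), with Bl 1 again the highest bird. In drug and steroid metabolism, 22 of 47 members lay above 0. GSTA4, a glutathione transferase, read 6.66, 9.65 and 8.94 in Ya, against 9.98, 9.89 and 10.38 in Bl (-1.67 ± 0.51, adjusted p = 0.211), and Ya 1 lay 2.28 below the next Ya bird. SULT, a sulfotransferase, went the other way, at 11.65, 11.60 and 11.55 in Ya, against 10.11, 11.01 and 10.18 in Bl (1.16 ± 0.52, adjusted p = 0.418). SOD1, the cytosolic superoxide dismutase, read 10.68, 10.87 and 10.98 in Ya, against 11.33, 11.50 and 11.29 in Bl (-0.53 ± 0.11, adjusted p = 0.0655). It passed when the variances were moderated with trend and robust estimation (adjusted p = 0.0457) and when the features with the lowest means were left out (0.0423).

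Ribosomal protein genes showed small, one-sided differences. Of 51 measured genes of cytosolic ribosomal proteins, 46 lay below 0, and 16 (31.4%) had every Ya bird below every Bl bird, where 8.40% of all features did. The median difference was only -0.12 and none passed, where 0.295% of all features did. RPS12 read 10.05, 10.06 and 10.08 in Ya, against 10.35, 10.41 and 10.41 in Bl (-0.32 ± 0.10, adjusted p = 0.23). The list mean was -0.22, -0.08 and -0.15 in the Ya birds, against -0.03, -0.07 and 0.02 in the Bl birds, and over left-out birds of the 2 breeds between 38 and 48 of 51 members lay below 0. Genes of the proteasome, with a median of -0.04, and of the respiratory chain, with -0.03, lay closer to 0. A median of -0.12 was also found for the hepatocyte, acute phase and complement, Toll-like receptor and red cell lists.

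**Figure D4:**
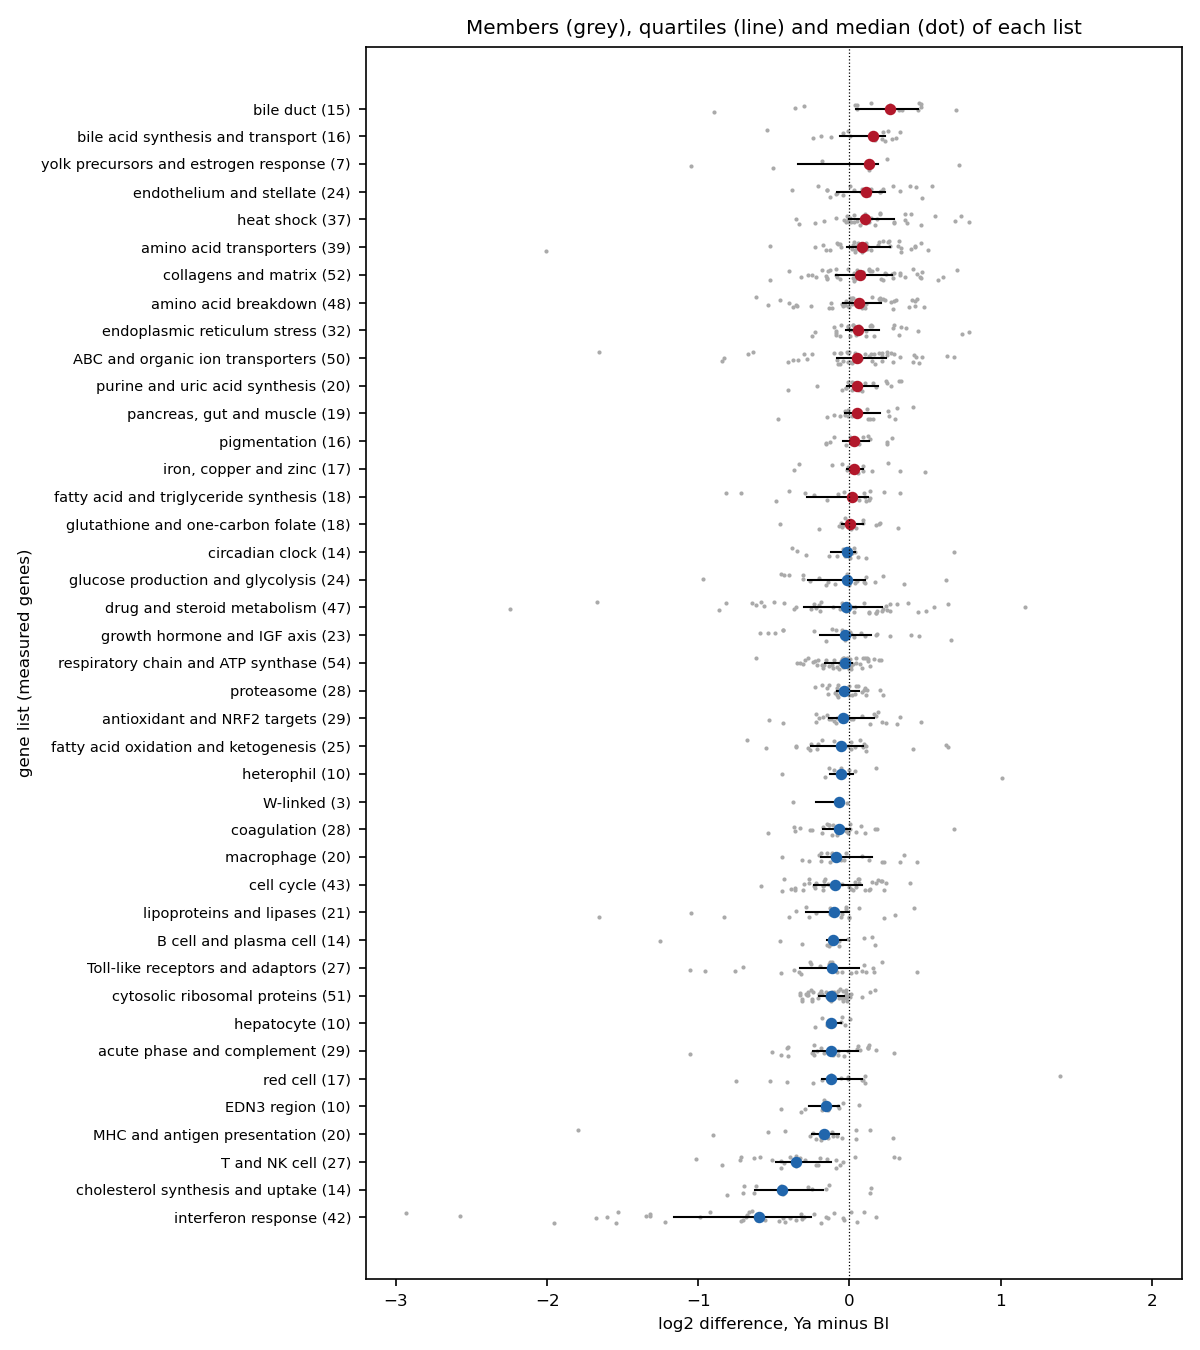
Log2 difference (Ya minus Bl, horizontal axis) of the members of 41 gene lists (grey points), with the quartiles (line) and median (dot, red above 0 and blue below) of each list and its number of measured genes in brackets. With all arrays the interferon list has the lowest median at -0.60, then cholesterol synthesis at -0.45 and T and NK cells at -0.36, and bile duct the highest at 0.27. Without Bl 1 cholesterol synthesis is at -0.56 and the interferon list at -0.35.

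The lists of bile duct and of matrix genes leaned higher in Hoengseong Yakdak. No member of either passed, where 0.295% of all features did. PROM1, which passed, is not a member of these lists. Of 15 measured bile duct genes 12 lay above 0 with a median of 0.27, which was 0.05 when the features with the lowest means were left out. In 3 (20%) every Ya bird lay above every Bl bird, where 7.62% of all features did. In 1 (6.67%) every Ya bird lay below, where 8.40% did. ANXA2 and KRT8 were chosen after their values were seen. ANXA2, a membrane-binding annexin, read 6.88, 7.54 and 7.90 in Ya, against 6.85, 6.71 and 6.63 in Bl (0.71 ± 0.23, adjusted p = 0.232). KRT8, a keratin of liver epithelium, read 9.50, 9.51 and 9.33 in Ya, against 8.80, 9.05 and 9.07 in Bl (0.47 ± 0.16, adjusted p = 0.243). ELF3, an epithelial transcription factor, was the lowest of the 3 members below 0, at 5.82, 6.68 and 6.25 in Ya, against 7.54, 7.15 and 6.75 in Bl (-0.90 ± 0.28, adjusted p = 0.213). The list means were -0.14, 0.25 and 0.22 in the Ya birds, against 0.00, -0.03 and -0.09 in the Bl birds, so Ya 1 lay below all Bl birds. The part of bile duct or matrix cells in the results for single genes was not tested.

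Collagen and matrix genes repeated this division of the Ya birds. Of 52 members 35 lay above 0, with list means of -0.16, 0.13 and 0.16 in the Ya birds, against -0.04, -0.04 and -0.09 in the Bl birds. LOXL2, an enzyme that crosslinks collagen, read 6.49, 7.56 and 7.63 in Ya, against 6.43, 6.64 and 6.49 in Bl. Its difference of 0.71 ± 0.24 did not pass with all arrays (adjusted p = 0.249) and passed without Ya 1 (1.08, adjusted p = 0.0107). With all arrays, 6 of the 52 members (11.5%) had every Ya bird above every Bl bird, where 7.62% of all features did. In 2 (3.85%) every Ya bird lay below, where 8.40% did. The count above was 21 without Ya 1, where 13.6% of all features did. It was 6 without Ya 2 and without Ya 3, where 11.7% and 12.4% did. Ya 1 was the lowest Ya bird of this list, so leaving it out favours that count and the LOXL2 call. TNC, the matrix protein tenascin C, read 7.12, 7.42 and 7.57 in Ya, against 6.67, 6.91 and 6.78 in Bl (0.59 ± 0.16, adjusted p = 0.159). In heat shock genes, where 27 of 37 lay above 0, Ya 1 was instead the highest bird, with list means of 0.18, -0.03 and -0.01 in the Ya birds, against -0.12, -0.14 and -0.07 in the Bl birds. DNAJB9, a chaperone of the endoplasmic reticulum, read 9.36, 8.03 and 8.22 in Ya, against 7.75, 7.67 and 7.83 in Bl (0.79 ± 0.51, adjusted p = 0.621).

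**Figure D5:**
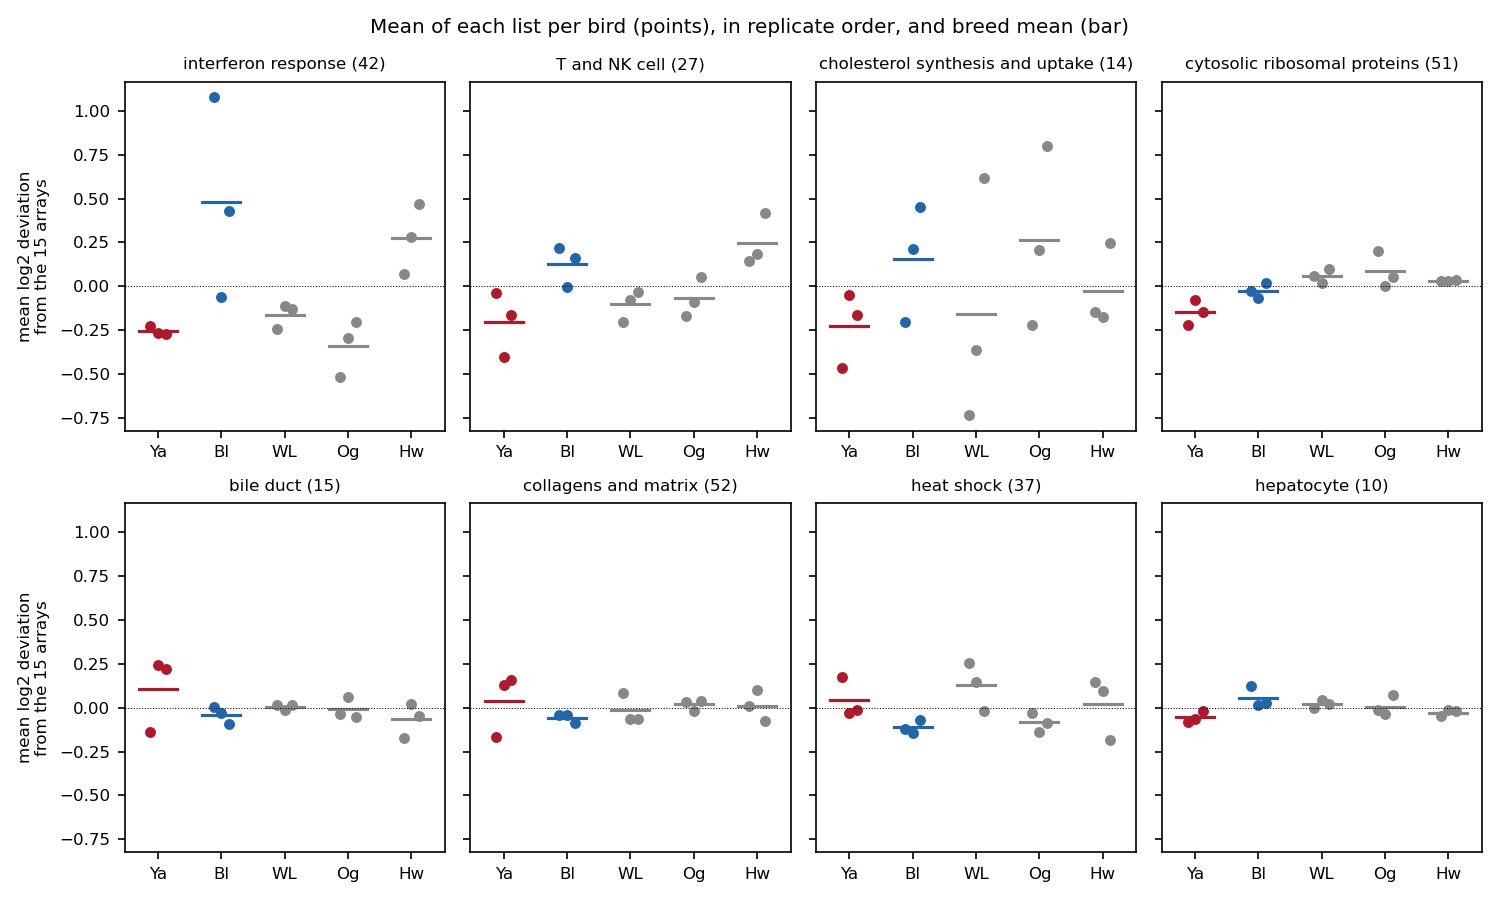
Mean log2 deviation from the 15 arrays (vertical axis) of 8 gene lists in each bird (points in replicate order) of Ya (red), Bl (blue) and the other 3 breeds (grey), with breed means as bars. Bl 1 stands apart in the interferon panel at 1.08, and Ya 1 lies below the other Ya birds for bile duct and matrix genes and above them for heat shock genes.

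No member passed in the growth hormone, clock, coagulation, glucose, respiratory chain and iron lists, where 0.295% of all features did. DIO2, which activates thyroid hormone, read 11.37, 7.69 and 8.62 in Ya, against 7.67, 10.05 and 7.96 in Bl, so each breed held 1 high bird and the sign of the difference (0.67) turned without Ya 1 (-0.40). PER2, a core repressor of the circadian clock, read 9.53, 9.46 and 9.39 in Ya, against 8.51, 9.03 and 8.76 in Bl (0.69 ± 0.19, adjusted p = 0.159), while 7 of 14 clock genes lay above 0. TFPI2, a protease inhibitor of the coagulation list, read 6.24, 6.38 and 6.81 in Ya, against 5.78, 5.58 and 5.999 in Bl (0.69 ± 0.16, adjusted p = 0.0844). HKDC1, a hexokinase, ranged from 9.87 to 11.64 in Ya and from 11.16 to 12.14 in Bl. NDUFA8, of respiratory complex I, differed by -0.62 ± 0.18 (adjusted p = 0.177) and HEPH, a copper-dependent iron oxidase, by 0.50 ± 0.16 (adjusted p = 0.24).

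No member passed in the lists of the next sentences, where 0.295% of all features did. Above 0 lay 10 of 16 genes of bile acid synthesis and transport, 10 of 24 of glucose production and glycolysis, 14 of 20 of purine and uric acid synthesis and 28 of 50 ABC and organic ion transporters. NR0B2, a nuclear receptor that represses bile acid synthesis, read 7.91, 9.05 and 9.60 in Ya, against 8.89, 9.53 and 9.78 in Bl (-0.55 ± 0.41, adjusted p = 0.684), and the breeds overlapped. ADSS2, an enzyme of AMP synthesis, read 7.27, 7.05 and 7.19 in Ya, against 7.86, 7.46 and 7.41 in Bl (-0.40 ± 0.13, adjusted p = 0.241), and every Ya bird lay below every Bl bird. In the endothelium and stellate list 16 of 24 lay above 0. FBLN5, an elastic fibre protein, read 7.85, 8.62 and 8.60 in Ya, against 7.56, 7.94 and 7.93 in Bl (0.54 ± 0.21, adjusted p = 0.329), with Ya 1 inside the range of the Bl birds. Above 0 lay 5 of 21 genes of lipoproteins and lipases, 8 of 28 of coagulation, 12 of 29 antioxidant genes, 11 of 28 of the proteasome and 18 of 54 of the respiratory chain. The same held for 11 of 23 genes of the growth hormone axis, 22 of 32 of endoplasmic reticulum stress, 10 of 18 of glutathione and folate, 10 of 17 of iron, copper and zinc and 3 of 10 of heterophils. Of 43 cell cycle genes 25 lay below 0, and TYMS, the thymidylate synthase, differed by -0.59 ± 0.18 (adjusted p = 0.213). Genes of red cells (12 of 17 below 0) and of pancreas, gut and muscle (8 of 19 below 0) gave medians of -0.12 and 0.05, with ACTA1, of skeletal muscle, at -0.47 ± 0.41 (adjusted p = 0.735). The red cell list counts RHCE by its feature with the higher mean, which did not pass, whereas its other feature did. SARM1, an adaptor of Toll-like receptors, read 5.75, 6.44 and 7.11 in Ya, against 7.60, 6.92 and 7.95 in Bl (-1.06 ± 0.48, adjusted p = 0.44), with overlap.

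Several genes that passed have uncertain identities at the level of the feature. RHCE, the Rh blood group protein, had 2 features in opposite directions. One read 1.57, 2.29 and 1.89 in Ya, against 3.28, 4.66 and 3.33 in Bl (-1.84 ± 0.35, adjusted p = 0.0478), with neither mean shown to be above background. The other read 5.23, 5.07 and 5.29 in Ya, against 4.71, 3.84 and 2.85 in Bl (1.39 ± 0.33, adjusted p = 0.0983; 0.0134 without Bl 1). No direction is therefore given for RHCE. ZNF598, a ubiquitin ligase that acts on collided ribosomes, passed on a feature with means of 5.01 in Ya and 5.73 in Bl (-0.73 ± 0.14, adjusted p = 0.0479), while its brighter feature, at 9.30 in Ya and 9.33 in Bl, differed by -0.04 ± 0.13. XPA, of nucleotide excision repair, was higher on both of its features (0.60 ± 0.12, adjusted p = 0.0479, and 0.38 ± 0.11, adjusted p = 0.177). CNTNAP2 was higher on all 3 of its features, at 0.60, 0.36 and 0.15. For RHCE, ZNF598 and XPA the call held in only 2 or 3 of the 15 fits with 1 array left out: for RHCE without Og 1 or Og 3, for XPA without Og 3 or Bl 2, and for ZNF598 without WL 1, WL 2 or Bl 2, with adjusted p up to 0.119, 0.163 and 0.165 otherwise.

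The 3 remaining genes fell. SPIA5 read 9.27, 8.59 and 8.82 in Ya, against 9.52, 9.70 and 9.72 in Bl (-0.76 ± 0.15, adjusted p = 0.0479) and passed in only 1 left-out fit, that without Ya 1 (adjusted p up to 0.165 otherwise). C2CD2 read 5.33, 5.14 and 5.46 in Ya, against 5.77, 6.14 and 6.10 in Bl (-0.69 ± 0.13, adjusted p = 0.0455) and passed only without WL 2 or Bl 1 (up to 0.165 otherwise). C3ORF67 read 4.41, 3.98 and 4.23 in Ya, against 5.81, 5.76 and 6.13 in Bl (-1.69 ± 0.28, adjusted p = 0.0246) and missed the threshold without Bl 1, Bl 3, Ya 2 or Ya 3 (adjusted p up to 0.143). In C3ORF67 the Ya level is not shown to be above background.

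The means of the other 3 breeds were set beside the 54 features, as a description with no test. These features were chosen for their difference between Ya and Bl, and that choice favours means outside the range of other breeds. In 52 of the 54 features the Ya mean lay outside the range of the White Leghorn, Yeonsan Ogye and Hwangbong means. In 22 of these the Bl mean lay within that range, and in the other 30 it was outside as well, on the opposite side in all but 1. The exceptions were MAOA and C3ORF67, where both means lay within the range of the other breeds. No feature had the Bl mean alone outside. Over all features the shares were alike, with the Ya mean alone outside in 21.1% and the Bl mean alone outside in 19.0%. SIDT1 lay at 7.59 on average in Ya and 5.28 in Bl, against 4.73 to 5.66 in the other breeds. SLC7A10 lay at 4.65 in Ya and 6.65 in Bl, against 6.49 to 7.19 elsewhere. GVINP1 was outside on both sides, at 5.83 in Ya and 7.68 in Bl, against 6.94 to 7.19 in the other 3 breeds, and ARFGEF3 likewise, at 6.23 in Ya and 3.97 in Bl, against 4.77 to 5.40.

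Genes of pigmentation and of the W chromosome gave no difference that passed, where 0.295% of all features did. Around EDN3, whose duplicated segment underlies dermal hyperpigmentation in some chickens, 9 of 10 measured genes lay below 0, with a median of -0.15, and none passed. ZNF831 differed by -0.29 ± 0.16, PRELID3B by -0.32 ± 0.31 and TUBB1 by -0.46 ± 0.24 (adjusted p = 0.511). EDN3 itself was at 4.05 in Ya and 4.24 in Bl, levels not shown to be above background. Of 16 pigmentation genes 11 lay above 0 and none passed, with SLC45A2, a melanosome transporter, at 0.28 ± 0.22. The W-linked genes HINTW, UBAP2L2 and ATP5F1AW differed by -0.02, -0.37 and -0.07.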

How the data were processed

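Liver RNA of 15 male chickens was hybridised as biotin-labelled cDNA, 1 Affymetrix array per bird. Per the submitters' processing notes, the authors made the deposited log2 values by RMA with version 1.3.1 of Affymetrix Expression Console. Their level of summarization is not given in the sources used here. All 18308 features were used. Symbols came from the platform annotation, with 1 symbol for 12300 features, several for 256 and none for 5752. For list counts, the feature with the highest mean stood for a gene.

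One model of 5 breed means was fitted to the 15 arrays by lmFit and eBayes of limma 3.58.1 (R 4.3.3), with 10 residual degrees of freedom, 3.89 more from moderation and a median standard error of 0.15. Tests were two-sided with Benjamini-Hochberg adjustment over all features. With 3 birds on each side, an exact permutation test reaches at best 0.1. The number of arrays limits the precision. The labels call the birds biological replicates, so p-values reflect differences between birds.

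The comparison and the 41 gene lists (1008 of 1552 symbols measured) were chosen with earlier results of these data known, and lists are described without a test. Named were the 12 largest rises and falls that passed with no overlap of the Ya and Bl birds, a condition that all 54 features met. Also named were up to 3 passing members each way and the largest difference of each list, and the hepatocyte, W-linked and EDN3 region genes. All other genes were chosen after their values were seen. Replicate numbers were checked as pairs: deviations of same-numbered birds correlated at 0.05, 0.05 and 0.19. Those of differently numbered birds correlated at between -0.18 and 0.12. With 3 birds a breed these values cannot settle whether the numbers mark pairs. The main fit used no blocks, and a replicate block was fitted as an alternative. Alternatives were array weights, moderation by trend and robust estimation, quantile normalisation, median centring, a filter on low features, 1 feature per gene, a fold minimum, the 6 arrays alone, a replicate block, and each array left out.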

Additional observations from a re-analysis of the deposited data

How the results depend on the processing

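With only the 6 arrays compared, 27 features passed, 10 higher and 17 lower, of which 19 were among the 54. Of the 39 named features that passed, 16 remained in that fit. The rest, both DDX60 features among them, passed only with the spread estimated over more arrays. Over the 15 fits with 1 array left out, the count ran from 20 to 86, with 7 to 27 higher and 13 to 60 lower. Trend and robust moderation gave 71 features, array weights 65, quantile normalisation 51, median centring 55, no features of low mean 62, and 1 feature per gene 42; a fold minimum of 1.5 left 54. With a replicate block, 71 passed (31 higher, 40 lower), 47 of them among the 54, and 35 of the 39 named features that passed remained. Genes that had not passed changed sign as follows, by their range over the left-out arrays: AHSG -0.00554 to 0.0141, APOA1 -0.245 to 0.0168, ATP5E -0.358 to 0.000468, ATP5F1AW -0.174 to 0.0199, AVD -1.68 to 0.0613, DIO2 -0.403 to 1.44, FAM217B -0.11 to 0.0214, HINTW -0.144 to 0.0505 (2e-05 with median centring), NELFCD -0.182 to 0.0366, PHACTR3 -0.0222 to 0.203 and PPP1R3D -0.23 to 0.0091. For AVD and DIO2 single birds made the sign; for the others the cause was not tested. The median of the yolk list was 0.13, and -0.51 without features of low mean.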

Other observations

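Genes that lie next to the passing ones were looked up in the order of RefSeq's chicken annotation, which placed 35 of the passing genes. Within 3 genes on each side, 98 measured neighbours were found and none of them passed. Of these, 47 differed in the direction of the passing gene. In 13 neighbours (13.3%) the breeds did not overlap in the direction of the passing gene, and in 9 (9.18%) they did not overlap in the opposite direction. The share of all features was 7.62% with Ya above Bl and 8.40% with Ya below Bl. Some pairs moved alike. DCDC2, a protein of cilia and microtubules beside NRSN1, averaged 8.04 in Ya and 6.93 in Bl (1.11 ± 0.24, adjusted p = 0.0752). Near PROM1, FGFBP2 averaged 4.25 in Ya and 3.35 in Bl (0.91 ± 0.19, adjusted p = 0.069), and TAPT1 differed by 0.36 ± 0.12. Neither mean of FGFBP2 is shown to be above background. GFRA1, a receptor for the neurotrophic factor GDNF near ATRNL1, averaged 7.93 in Ya and 7.36 in Bl (0.58 ± 0.16, adjusted p = 0.159). Near TUBA8B, USP41 averaged 6.48 in Ya and 8.15 in Bl (-1.68 ± 0.46, adjusted p = 0.153). Other pairs opposed each other. Near SPIA5, which fell, SPIA3 averaged 10.59 in Ya and 9.15 in Bl (1.44 ± 0.45, adjusted p = 0.217), and the interferon gene EPSTI1 near ENOX1 differed by -1.35 ± 0.39 (adjusted p = 0.183). These neighbours were chosen after their values were seen.

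Beside the named genes, 15 features passed without a usable name. Of these, 14 had no symbol and 1 had only a locus number. Of the 15, 3 were higher in Hoengseong Yakdak and 12 lower. The share of falls was thus larger among unnamed than among named features, of which 17 of 39 were lower, and this difference was not tested.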
